A study of Mus musculus with 6 samples.

Results

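The genes described here are 9 genes of the visual cycle and of the retinal pigment epithelium, namely Rpe65, Lrat, Rdh5, Rdh10, Rlbp1, Rgr, Rrh, Ttr and Best1. Every probe set that the platform annotation assigns to 1 of these genes alone was taken, which gave 14 probe sets of 45101 on the array, and 1 further probe set that lists Rdh5 together with a neighbouring gene was left out. Messenger RNA of whole retinas was measured on Affymetrix mouse arrays, with 1 retina and 1 animal per array. All animals were female DBA/2J mice, which are inbred and known for a pigmentary glaucoma that comes with age. There were 3 retinas from mice of 8 months chosen for elevated intraocular pressure and 3 from mice of 3 months with normal pressure, all untreated as far as the labels say. The last pressure was 27.4 ± 2.67 mmHg in the eyes sampled at 8 months and 17.5 ± 1.99 mmHg in those sampled at 3 months (SD, n = 3 each). Age and pressure thus differed together and cannot be told apart. Among the 8-month retinas, retina 1 was a left eye and retinas 2 and 3 were right eyes, while all 3-month retinas were left eyes. No other strain was on the arrays.

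Photoreceptors bleach their pigment when light turns its cis-retinal to the all-trans form, and the visual cycle is the set of reactions that turns it back. In the classical cycle the isomerising steps take place in the pigment epithelium, a single cell layer that lies behind the neural retina and touches the tips of the photoreceptors, and a further pathway has been described that uses Müller glia, the radial glia of the neural retina itself. Of the 9 genes, Rpe65, Lrat, Rdh5, Rgr, Rrh and Best1 are known chiefly from the pigment epithelium. Rlbp1 and Rdh10 are known well from both the epithelium and Müller glia. Rgr has been described in Müller glia too, and Ttr is also made by tissues other than the epithelium. Both are grouped here with the epithelium genes.

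Of the 14 probe sets, 11 passed the filter on low values, which asked for at least 3 of the 6 arrays at or above 4 on the log2 scale, and these covered 7 of the 9 genes. Ttr, Rgr and Rpe65 differed several-fold from retina to retina without regard to age, whereas Rlbp1, Rdh10 and Rrh were nearly level over all retinas. None of the 11 probe sets differed between 8 and 3 months beyond the spread between retinas. In a sample of whole tissue, fewer cells of a type and less RNA per cell cannot be told apart. Levels are given as log2 expression after GCRMA, and the level of 1 probe set is not comparable with that of another.

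The 250 bases before the start of 4 genes are shown because these genes differ in how they ran over the retinas. Rpe65 and Rgr had the same high and low retinas as Ttr, Best1 shared them in part and Rrh did not. The sequences are the RefSeq reference of build GRCm38.p6, which comes from another strain than DBA/2J, read in the direction of the gene. They lie at chr3:159598931-159599180 on the plus strand for Rpe65 and, on the minus strand, at chr14:37049015-37049264 for Rgr, chr19:10001634-10001883 for Best1 and chr3:129822506-129822755 for Rrh. Capitals mark matches to TAATCC, a core sequence bound by OTX2 and CRX, and to CATGTG, an E-box of the kind bound by MITF, each on either strand.
Rpe65: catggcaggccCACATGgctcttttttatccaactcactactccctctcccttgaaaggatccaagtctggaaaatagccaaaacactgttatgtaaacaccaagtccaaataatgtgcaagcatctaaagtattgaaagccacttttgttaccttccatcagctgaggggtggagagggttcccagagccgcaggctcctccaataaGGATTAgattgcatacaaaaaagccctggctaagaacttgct
Rgr: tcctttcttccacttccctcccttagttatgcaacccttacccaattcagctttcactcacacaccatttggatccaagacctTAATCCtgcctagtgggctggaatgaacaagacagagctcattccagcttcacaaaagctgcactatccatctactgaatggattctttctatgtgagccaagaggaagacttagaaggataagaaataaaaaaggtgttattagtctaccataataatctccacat
Best1: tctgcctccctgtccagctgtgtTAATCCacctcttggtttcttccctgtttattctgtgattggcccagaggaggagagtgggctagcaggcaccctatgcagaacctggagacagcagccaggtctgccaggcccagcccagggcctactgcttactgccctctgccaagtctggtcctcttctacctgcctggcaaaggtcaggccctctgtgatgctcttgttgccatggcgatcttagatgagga
Rrh: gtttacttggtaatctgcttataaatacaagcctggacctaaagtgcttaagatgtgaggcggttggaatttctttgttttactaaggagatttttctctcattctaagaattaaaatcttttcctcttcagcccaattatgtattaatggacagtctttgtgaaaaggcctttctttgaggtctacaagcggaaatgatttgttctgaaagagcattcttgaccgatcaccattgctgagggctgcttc
TAATCC was found in the windows of Rpe65, Rgr and Best1, which is 3 of the 7 genes for which a window was available. No window was available for Ttr, whose order of the retinas is the reference here, or for Rdh10. It begins 42 bases before the start in Rpe65 (as GGATTA, on the other strand), 167 bases before it in Rgr and 227 bases before it in Best1. Of all 32851 windows of the same length, 6.25% held it. CATGTG matched in Rpe65 and Rlbp1, as CACATG, and in 12.3% of all windows. CACGTG, a related E-box that reads the same on both strands, matched in 0 of the 7 genes and in 6.02% of all windows. None of these matches overlapped another, and a match in letters is not a bound site.

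Ttr, which encodes transthyretin, the carrier of thyroxine and of retinol-binding protein, was read by 4 probe sets. The one of highest mean stood at 9.30, 9.61 and 7.61 in 8-month retinas 1 to 3, against 7.03, 8.85 and 10.40 in 3-month retinas 1 to 3. The ages overlapped fully, with both the highest and the lowest reading at 3 months. The highest and the lowest retina differed 10.3-fold by that probe set, and between 4.95-fold and 11.7-fold over all 4. Each of the 4 probe sets carries a suffix that marks probes able to match several transcripts, but they ranked the retinas almost alike. In all 4 the order from the top was 3-month retina 3, 8-month retina 2, 8-month retina 1 and 3-month retina 2, and 8-month retina 3 and 3-month retina 1 were lowest.

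Rgr encodes an opsin-like protein of the pigment epithelium and Müller glia that binds all-trans-retinal. It stood at 6.03, 6.54 and 4.88 in 8-month retinas 1 to 3, against 3.72, 5.49 and 6.31 in 3-month retinas 1 to 3, a 7.10-fold range. Rpe65 encodes the isomerohydrolase that makes cis-retinol from retinyl esters, the step particular to the visual cycle. It stood at 4.91, 5.43 and 3.00 in 8-month retinas 1 to 3, against 2.80, 3.90 and 4.99 in 3-month retinas 1 to 3, a 6.16-fold range. Both genes had the same 3 retinas on top as Ttr and the same 2 at the bottom, and their ages overlapped. Across the 11 kept probe sets, 6 shared these top 3 and lowest 2 retinas, and they were the 4 of Ttr and the 1 each of Rgr and Rpe65. The pattern was itself taken from Ttr, so the 4 Ttr probe sets are no separate matches. How many of all kept probe sets share the pattern was not counted. The lowest readings of Rpe65, and that of Rgr in 3-month retina 1, lay below the filter and near the floor of the table, whose lowest value was 2.17, so both ranges in fold may be understated.

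**Figure D1:**
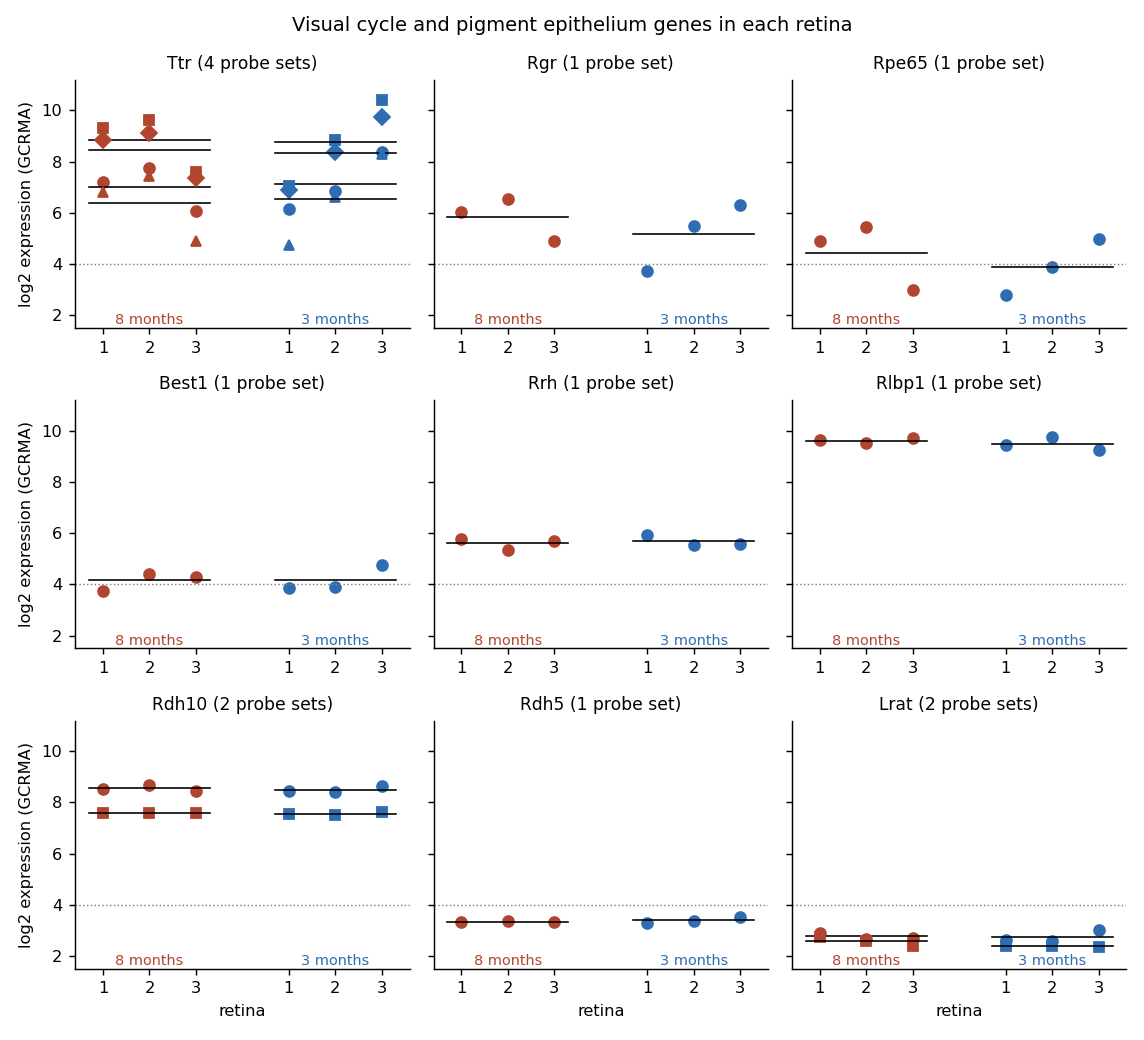
Log2 expression of each probe set of the 9 genes in every retina. Horizontal axis: retinas 1 to 3 of 8 months (red) and 1 to 3 of 3 months (blue); black lines are the mean of each age (n = 3), marker shapes stand for different probe sets and the dotted line is the filter at 4. Ttr, Rgr and Rpe65 spread widely within each age, whereas Rlbp1, Rdh10 and Rrh do not, and Rdh5 and Lrat lie below the filter in every retina.

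Best1, which encodes the bestrophin chloride channel of the pigment epithelium's basal membrane, lay at the filter. It stood at 3.76, 4.41 and 4.30 in 8-month retinas 1 to 3, against 3.87, 3.91 and 4.74 in 3-month retinas 1 to 3. It shared with Ttr the 2 highest retinas, 3-month retina 3 and 8-month retina 2, but was lowest in 8-month retina 1, where Ttr was the third from the top. Rrh encodes peropsin, another opsin-like protein described at the microvilli of the pigment epithelium. It stood at 5.78, 5.36 and 5.69 in 8-month retinas 1 to 3, against 5.94, 5.53 and 5.59 in 3-month retinas 1 to 3. Its range was 1.49-fold, and its order did not follow that of Ttr, being highest in 3-month retina 1, where Ttr by its probe set of highest mean was lowest, and lowest in 8-month retina 2.

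Lrat, the acyltransferase that forms retinyl esters, and Rdh5, the dehydrogenase that oxidises cis-retinol to cis-retinal in the epithelium, lay below the filter in every retina. The 2 Lrat probe sets read between 2.40 and 2.92 at 8 months and between 2.34 and 3.03 at 3 months. Rdh5 read between 3.34 and 3.35 at 8 months and between 3.29 and 3.52 at 3 months. Readings this close to the floor do not order the retinas.

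Further markers of the pigment epithelium were mostly dim as well, so the label of a pigment epithelium programme held only in part. Of 11 listed, 9 were found in the annotation and 3 passed the filter, and these 3 (Efemp1, Krt18 and Sulf1) are also made by other cells. The monocarboxylate carrier gene Slc16a8, the retinol-binding protein receptor gene Stra6 and the tight junction gene Cldn19, which are more specific to the epithelium in this tissue, did not pass. Stra6 read 2.45, 2.83 and 2.81 in 8-month retinas 1 to 3, against 3.52, 2.98 and 2.80 in 3-month retinas 1 to 3. Slc6a20a, which did not pass either, read 2.68, 2.72 and 2.50 in 8-month retinas 1 to 3, against 2.37, 2.69 and 3.60 in 3-month retinas 1 to 3. Like the brightest Ttr probe set, it was highest in 3-month retina 3 and lowest in 3-month retina 1. Readings of both genes are too dim to order the retinas. Efemp1, a matrix protein gene, stood at 8.84, 8.95 and 9.08 in 8-month retinas 1 to 3, against 7.96, 9.0 and 8.68 in 3-month retinas 1 to 3. It was lowest in 3-month retina 1, as were Rgr and Rpe65, but highest in 8-month retina 3, where they were low.

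Rlbp1 and Rdh10, the members grouped as Müller-expressed, varied less over the retinas. Rlbp1 encodes the cellular retinaldehyde-binding protein, which carries cis-retinoids. It stood at 9.64, 9.52 and 9.71 in 8-month retinas 1 to 3, against 9.43, 9.77 and 9.26 in 3-month retinas 1 to 3, a 1.43-fold range. It was lowest in 3-month retina 3, the retina highest in Ttr. Rdh10, which oxidises all-trans-retinol, stood at 8.54, 8.69 and 8.44 in 8-month retinas 1 to 3 by its probe set of higher mean, against 8.45, 8.40 and 8.64 in 3-month retinas 1 to 3, a 1.22-fold range. That probe set had the same 3 retinas on top as Ttr. The other stood at 7.57, 7.58 and 7.58 in 8-month retinas 1 to 3, against 7.55, 7.52 and 7.62 in 3-month retinas 1 to 3, a 1.07-fold range, and had another order.

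To set the epithelium genes beside Müller genes in each retina, every probe set was expressed as its deviation from its own mean over the 6 retinas, and deviations were averaged per gene and then per list. The 5 kept epithelium members averaged 0.27, 0.61 and -0.56 in 8-month retinas 1 to 3, against -0.93, -0.13 and 0.74 in 3-month retinas 1 to 3. Rlbp1 and Rdh10 averaged 0.05, 0.02 and 0.06 in 8-month retinas 1 to 3, against -0.09, 0.06 and -0.11 in 3-month retinas 1 to 3. The epithelium members thus spanned a 3.17-fold range over the retinas and the Müller-expressed members a 1.13-fold one. A list of 17 other Müller genes, among them glutamine synthetase and the water channel Aqp4, had 16 with a kept probe set. Those 16 averaged 0.10, 0.03 and -0.03 in 8-month retinas 1 to 3, against -0.06, -0.08 and 0.04 in 3-month retinas 1 to 3, also a 1.13-fold range. Some genes of that list varied more than its mean. Vim, an intermediate filament gene, deviated by 0.55, -0.21 and -0.26 in 8-month retinas 1 to 3, against -0.43, -0.44 and 0.78 in 3-month retinas 1 to 3. How much pigment epithelium each retina carried was not measured, and its part in the levels of Ttr, Rgr and Rpe65 was not tested.

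**Figure D2:**
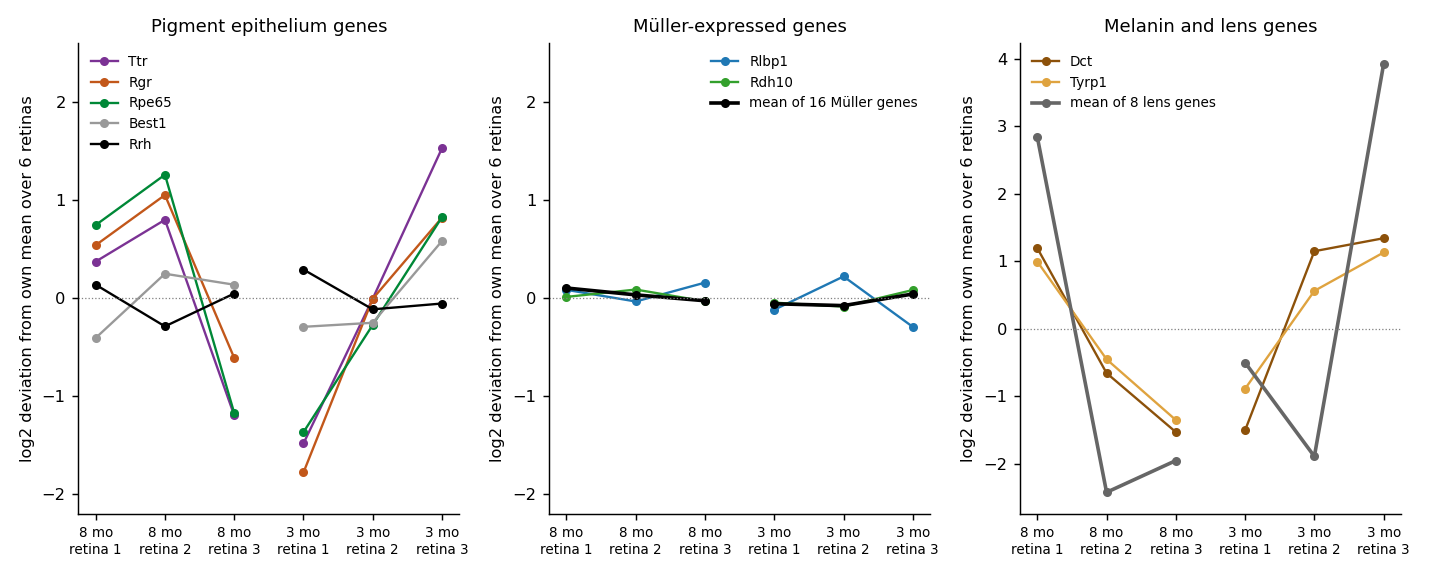
Log2 deviation of each gene or list from its own mean over the 6 retinas, for the 5 kept epithelium members (left), Rlbp1, Rdh10 and 16 Müller genes (middle), and the melanin enzymes Dct and Tyrp1 with 8 lens genes (right). Horizontal axis: 8-month retinas 1 to 3, then 3-month retinas 1 to 3; the right panel has a wider vertical axis. Ttr, Rgr and Rpe65 move together over a wide range in which Rlbp1, Rdh10 and the mean of the Müller genes stay between -0.30 and 0.22.

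The spread between retinas of 1 age was extreme for some members and ordinary for others when set against all 20973 kept probe sets. Only 24 kept probe sets had a larger within-age SD than the brightest Ttr probe set, which had an SD of 1.41 on the log2 scale. For Rpe65 the SD was 1.19, with 36 probe sets above it, and for Rgr it was 1.11, with 40 above it. Best1 followed at 0.43, above 98.1% of kept probe sets. Rrh and Rlbp1, at 0.22 and 0.20, lay above 79.8% and 72.8%, and Rdh10 above 39.7% and 2.64% by its 2 probe sets. The median over all kept probe sets was 0.14.

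**Figure D3:**
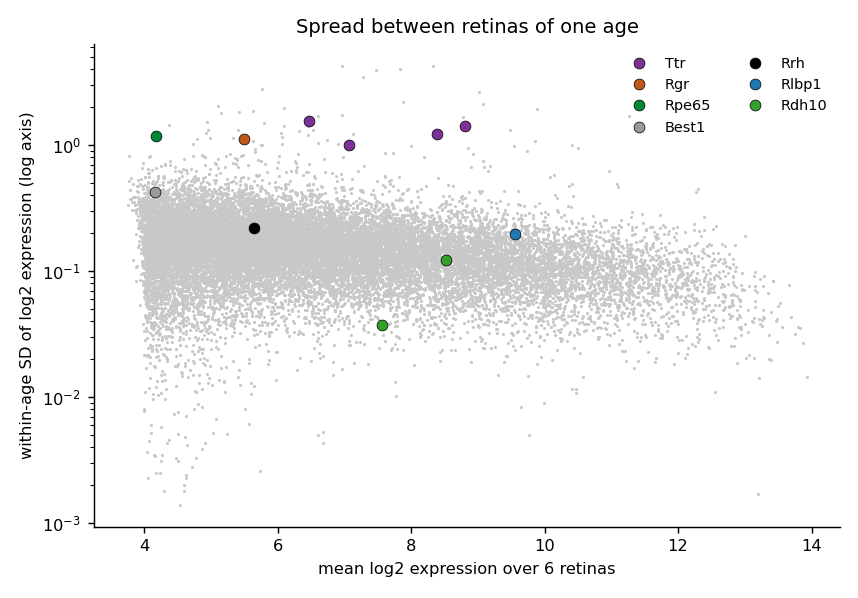
Within-age SD of log2 expression (vertical, log axis) against mean log2 expression over 6 retinas (horizontal) for the 20973 kept probe sets (grey), with the 11 kept probe sets of the members in colour. The 4 Ttr probe sets, Rgr and Rpe65 lie at the upper edge of the cloud, with SDs from 1.01 to 1.56.

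Between the ages, none of the 11 kept probe sets passed (limma, with Benjamini-Hochberg adjustment across the kept table and a threshold of 0.05), where 0.00477% of all kept probe sets did, a single one. Without adjustment 0 of the 11 had p under 0.05, against 14.9% of all kept probe sets, and in 0 of the 11 were the ages free of overlap, against 21.8% (6.89% higher and 14.9% lower at 8 months). The lowest limma adjusted p among them was 0.667, for Rlbp1. With 3 retinas per age an exact permutation test could not give a two-sided p under 0.1.

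The size of an age difference that these retinas leave room for depends on the member. Ttr averaged 8.84 ± 1.08 at 8 months and 8.76 ± 1.69 at 3 months by its probe set of highest mean (SD, n = 3 each). That is a log2 difference of 0.08, with a 95% interval from -1.98 to 2.14, or from 0.254 to 4.41 times the 3-month level. The other 3 probe sets differed by -0.16 to 0.11, so neither size nor sign was set. Rgr averaged 5.82 ± 0.85 at 8 months and 5.17 ± 1.33 at 3 months, and Rpe65 averaged 4.45 ± 1.28 at 8 months and 3.90 ± 1.095 at 3 months (log2, SD, n = 3 each). Their log2 differences were 0.65 (95% interval -0.98 to 2.28) and 0.55 (-1.19 to 2.29). For both, the spread between retinas of an age was larger than the difference between the ages. Without 3-month retina 1, the lowest, the Rgr difference was -0.08.

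The interval was narrower for the even members. Rlbp1 averaged 9.62 ± 0.10 at 8 months and 9.49 ± 0.26 at 3 months, a log2 difference of 0.13 (95% interval -0.20 to 0.46). Without 3-month retina 2 the Rlbp1 difference was 0.27, and without 3-month retina 3 it was 0.018. Rdh10 differed by 0.06 (-0.18 to 0.30) and 0.02 (-0.16 to 0.19) by its 2 probe sets. The intervals of Rlbp1 and Rdh10 therefore reach at most 1.38 and 1.23 times the 3-month level. Rrh differed by -0.08 (-0.44 to 0.29), and Best1, which was read near the floor, by -0.02 (-0.66 to 0.62). Without 8-month retina 1 and 3-month retina 3, the 2 retinas highest in lens transcripts, Best1 differed by 0.46. The unadjusted limma p was 0.00746 and the limma adjusted p 0.664, with 2 retinas left per age. In that setting 1567 of all 20973 kept probe sets had an unadjusted limma p under 0.05. The retinas left out held the lowest and the highest Best1 reading, 3.76 and 4.74, so the difference could only rise.

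**Figure D4:**
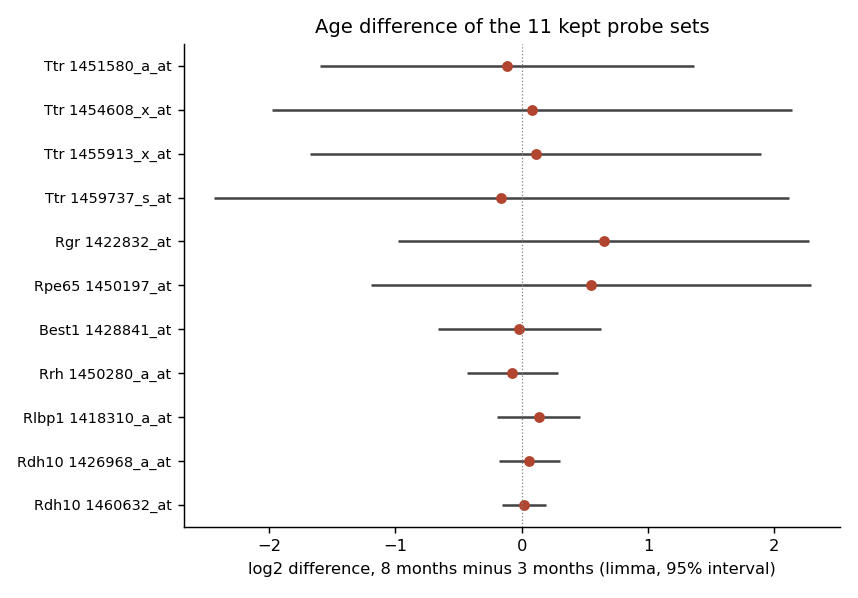
Log2 difference of 8 months minus 3 months (dot) with its 95% interval from limma (line) for the 11 kept probe sets, each named by gene and probe set. All intervals include 0; those of Ttr, Rgr and Rpe65 are several times wider than those of Rlbp1 and Rdh10.

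Transcripts of other eye tissues also varied between the retinas, in orders that differed in part. Dct and Tyrp1, the late enzymes of melanin synthesis found in pigment epithelium and in melanocytes, were listed with other melanosome genes, and they and Mitf were the 3 genes of the 12 to pass the filter. Dct stood at 6.99, 5.14 and 4.26 in 8-month retinas 1 to 3, against 4.29, 6.94 and 7.14 in 3-month retinas 1 to 3. Tyrp1 stood at 6.64, 5.31 and 4.69 in 8-month retinas 1 to 3, against 4.83, 6.27 and 6.74 in 3-month retinas 1 to 3. Both had the same 2 lowest retinas as Rpe65 and Rgr, but 8-month retina 2, which was highest in Rpe65 and Rgr, stood below 3-month retina 2 as well. Mitf, a pigment cell transcription factor gene that other retinal cells also express, was nearly even, between 8.83 and 9.08 at 8 months and between 8.65 and 8.89 at 3 months. Tyr, Pmel, Mlana, Oca2, Slc45a2, Gpnmb, Gpr143 and Rab38 did not pass the filter.

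Lens genes, of which 8 of 12 passed, averaged a log2 deviation of 2.84, -2.42 and -1.95 in 8-month retinas 1 to 3, against -0.50, -1.89 and 3.93 in 3-month retinas 1 to 3. They were high in 2 of the 3 retinas richest in Ttr and lowest of all in the remaining one, 8-month retina 2. The 4 kept genes of ciliary body, iris and smooth muscle averaged between -0.16 and 0.05 at 8 months and between -0.05 and 0.23 at 3 months. Slc4a4, which is among them, varied more than this mean. It stood at 8.14, 7.39 and 7.06 in 8-month retinas 1 to 3, against 7.28, 7.90 and 8.23 in 3-month retinas 1 to 3. Its order of the retinas was that of Dct and Tyrp1. The 4 kept genes of choroid vessels and endothelium averaged between -0.13 and -0.08 at 8 months and between 0.01 and 0.26 at 3 months. Of 7 red cell genes 1 passed, Slc4a1, which reached 4.20 at 8 months and 4.03 at 3 months. Of 10 rod genes 8 passed, averaging between -0.11 and -0.03 at 8 months and between 0.01 and 0.13 at 3 months. The part of melanocytes, lens or vessels in the levels of the members was not tested.

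The visual cycle steps that take place in photoreceptors, and the wider retinoid pathway, were examined from lists of other genes. Of 9 genes listed for the photoreceptor part of the cycle, which include the disc morphogenesis gene Prom1, 7 were kept and 0 passed between the ages. Of these 7, 3 were higher and 4 lower, where 4095 of all 11219 kept genes were higher and 7124 lower. Their median log2 difference was -0.11, against -0.06 over all kept genes. Rdh12, the retinal reductase of photoreceptor inner segments, averaged 11.16 ± 0.02 at 8 months and 11.32 ± 0.05 at 3 months. Rdh13, a mitochondrial retinol dehydrogenase, averaged 7.56 ± 0.05 at 8 months and 7.87 ± 0.13 at 3 months (log2, SD, n = 3 each). Both had all 8-month retinas below all 3-month ones, as did Prom1, a disc morphogenesis gene, but none passed, with limma adjusted p of 0.363, 0.263 and 0.328. Abca4, the transporter that clears retinal from discs, and Rbp3, the retinoid carrier of the matrix between photoreceptors and epithelium, differed by -0.11 and 0.00 by their probe sets of highest mean. A second Rbp3 probe set differed by 0.39 without overlap, with a limma adjusted p of 0.278. Rdh14, another retinol dehydrogenase, differed by 0.11, and its 3 probe sets ranged from -0.14 to 0.28. The ages did not overlap for 3 of the 7, all lower, where 1899 of all 11219 kept genes were lower without overlap. Without adjustment 2 of the 7, Rdh13 and Prom1, had a limma p under 0.05 and were lower, where 1287 of all 11219 kept genes were.

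Of 32 other retinoid enzymes, carriers and receptors, 15 were kept and 0 passed, with 6 higher and 9 lower and a median log2 difference of -0.04. Rdh9, a short-chain dehydrogenase gene, averaged 6.44 ± 0.13 at 8 months and 5.88 ± 0.09 at 3 months (log2, SD, n = 3 each). That was a 1.48-fold difference with all 8-month retinas above all 3-month ones and a limma adjusted p of 0.177, read by a probe set that may match related dehydrogenases. Retsat, which saturates retinol, and the retinoic acid carriers Crabp1 and Crabp2 differed by -0.39, -0.33 and -0.45, with limma adjusted p of 0.278, 0.293 and 0.309. The ages did not overlap for Retsat by this probe set or for Crabp1, but did for Crabp2, and a dimmer Retsat probe set differed by -0.13 with overlap. With an unadjusted limma p under 0.05, 1 of the 15 was higher and 4 lower, where 402 and 1287 of all 11219 kept genes were. The balance of such calls over all kept probe sets, 971 higher (4.63%) and 2155 lower (10.3%), depended on scaling. It became 1376 higher and 1423 lower when arrays were quantile normalized. Cyclic loess gave 1472 higher and 1325 lower, and centring on medians gave 2141 higher and 1000 lower.

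**Figure D5:**
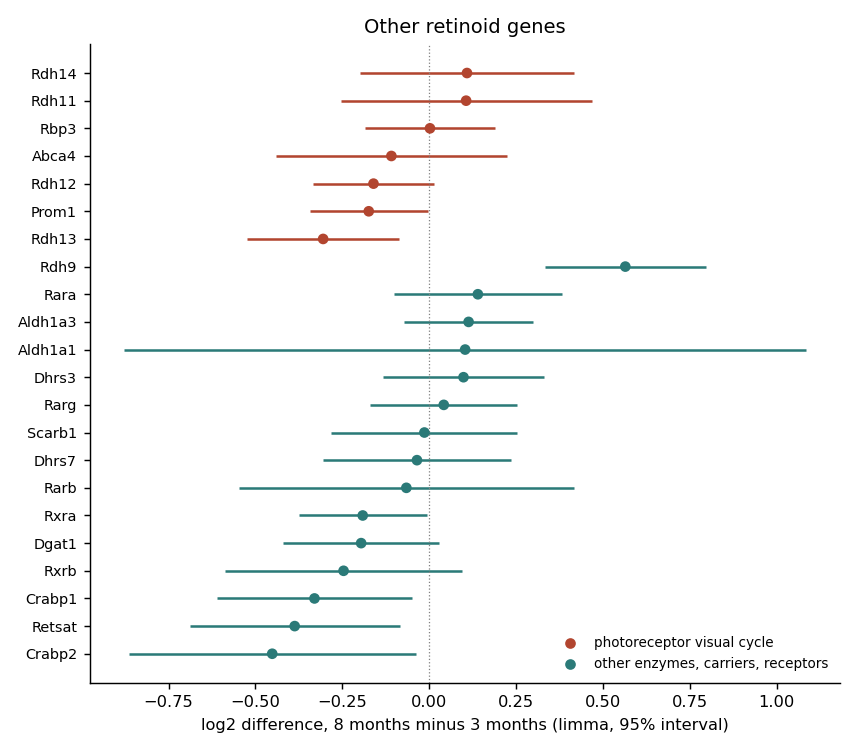
Log2 difference of 8 months minus 3 months with its 95% limma interval for the kept genes of the photoreceptor visual cycle list (red, 7 genes, among them the disc morphogenesis gene Prom1) and for other retinoid enzymes, carriers and receptors (green, 15 genes), by the brightest kept probe set of each gene. No gene passed after adjustment over all kept probe sets; Rdh9 lies farthest above 0, at 0.56, and Crabp2 farthest below, at -0.45.

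Among the 16 kept Müller genes, 11 were higher and 5 lower at 8 months, with a median log2 difference of 0.07, and 0 passed. Over all 11219 kept genes 4095 were higher and 7124 lower, with a median of -0.06. With an unadjusted limma p under 0.05, 2 of the 16 were higher and 0 lower, against 402 and 1287 of all kept genes. Aqp4 averaged 10.36 ± 0.14 at 8 months and 10.06 ± 0.08 at 3 months (log2, SD, n = 3 each), with a limma adjusted p of 0.273 and no overlap. Spc25, a kinetochore gene found at high level in mouse Müller glia, and the membrane glycoprotein gene Pdpn differed by 0.22 and 0.26, likewise without overlap, and the adhesion receptor gene Cd44 differed by 0.29 with overlap, and by -0.02 by its other kept probe set. In all, the ages did not overlap for 4 genes that were higher, the other being Glul at 0.15, and 2 that were lower (Kcnj10 and Lhx2, by -0.04 and -0.07). Of all 11219 kept genes, 679 were higher and 1899 lower without overlap. By their other kept probe sets Glul, Aqp4 and Spc25 differed by -0.01, 0.27 and 0.27, each with overlap. For Spc25, Pdpn and Cd44 the limma adjusted p values were 0.318, 0.373 and 0.402 by the probe sets of highest mean. Of the 3 kept markers of the further epithelium list, Efemp1 and Sulf1 differed by 0.41 and 0.07 with overlap, and Krt18 by -0.33 without, with limma adjusted p of 0.459, 0.687 and 0.218. A dimmer kept Sulf1 probe set differed by 0.65 with overlap, at an unadjusted limma p of 0.0296 and a limma adjusted p of 0.299. In the remaining lists 0 genes passed.

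The genes most like the epithelium members over the 6 retinas were sought among 148 kept genes, members left out, with an SD over the retinas of at least 0.5. Likeness was the Pearson correlation, over those 6 retinas, with the mean deviation of the 5 kept epithelium members, to which Ttr, Rgr and Rpe65 as parts of it correlated at 0.968 to 0.983, Best1 at 0.55 and Rrh at -0.69. Of the members outside that mean, Rdh10 correlated at 0.83 and Rlbp1 at -0.35. The 10 closest were Vcan, Rab32, Slc16a9, Gsn, Ogn, Slc16a12, Niban1, F5, Mgst1 and Ifitm2, with correlations between 0.80 for Ifitm2 and 0.87 for Vcan. Vcan stood at 5.98, 5.83 and 5.45 in 8-month retinas 1 to 3, against 4.54, 5.64 and 5.92 in 3-month retinas 1 to 3. Like Rgr and Rpe65 it was lowest in 3-month retina 1 and next lowest in 8-month retina 3. Slc16a12, a monocarboxylate carrier family gene, stood at 6.59, 6.24 and 6.04 in 8-month retinas 1 to 3, against 4.50, 6.13 and 6.63 in 3-month retinas 1 to 3. It was low mainly in 3-month retina 1. All these correlations are over 6 points that share their arrays, and they are given as a description.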

How the data were processed

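The deposited values are log2 expression per probe set. Per the submitters' processing notes, the authors made them with R 1.9.0 and GCRMA 1.1.0, with options not given in the sources used here. GCRMA takes the probes' sequences into its background model and draws dim readings to a floor, which can shrink the differences of dim genes. Genes were named from the platform annotation, and all 9 members matched the GRCm38.p6 gene table by gene identifier.

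Control probe sets (64) were left out, and 20973 of 45037 probe sets, 46.6%, had at least 3 of 6 arrays at or above 4. The age comparison was fitted to all of these with limma 3.58.1 (R 4.3.3, lmFit and eBayes), two-sided, with Benjamini-Hochberg adjustment and no covariate, and the fit was tested on simulated data. In a list, the probe set of highest mean among those kept stood for its gene. Named were all members, up to 4 genes of smallest p from the main lists, and the 10 genes most like the members. Members, lists and tests were chosen with earlier results of these data known. The number of arrays limits the precision. Correlations between arrays lay from 0.985 to 0.994. The 3' minus 5' log2 signal of Gapdh, a sign of RNA quality, was 0.755 to 0.811 at 8 months and 0.707 to 0.751 at 3 months, and its part in the results was not tested.

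Alternatives changed the filter (none, or a minimum of 6), the normalization (quantile, median, cyclic loess), the model (eye side or replicate number added) or the data (left eyes alone, single arrays or both lens-rich arrays left out, less specific probe sets left out).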

Additional observations from a re-analysis of the deposited data

How the results depend on the processing

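In the alternatives run, 0 member probe sets passed the adjusted threshold. The count at an unadjusted limma p under 0.05 was 0 in each, except 1 without 3-month retina 2 (Rlbp1) and 1 without both lens-rich retinas (Best1). Differences near 0 changed sign with the setting, and those of the variable members changed in size. After median centring Best1 and Rrh differed by 0.063 and 0.0078 (log2), and the means of Rlbp1 with Rdh10 and of the Müller list by 0.17 and 0.15. With eye side as a covariate, and equally in left eyes alone, 8-month retina 1 alone stood against the 3-month retinas. The right eyes were all of 8 months, so these settings cannot tell age from that 1 retina. The Müller list then differed by 0.13 and Rrh by 0.096. The 2 Ttr probe sets of lowest mean differed by 0.087 and, for the lowest, 0.28. The other Ttr probe sets then differed by 0.54 and 0.52, Rgr by 0.86, Rpe65 by 1.02, Best1 by -0.42 and the epithelium mean by 0.38. Without both lens-rich retinas these Ttr probe sets differed by 0.41 and 0.49 and Best1 by 0.46, Rrh by -0.21 and the Rdh10 probe sets by 0.14 and 0.049. There the other Ttr probe sets differed by 0.67 and 0.61, Rgr by 1.11, Rpe65 by 0.86, Rlbp1 by 0.011 and the epithelium mean by 0.56. Without less specific probe sets, Rdh10 alone stood for the Müller-expressed members, at 0.018.

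With 1 retina left out at a time, the mean difference of the epithelium members ran from -0.19 to 0.64. The 4 Ttr probe sets ran in order of falling mean level, from -0.78 to 0.90, from -0.62 to 0.82, from -0.61 to 0.51 and from -1.06 to 0.71. Rgr ran from -0.080 to 1.22, Rpe65 from 0.0010 to 1.27, Best1 from -0.17 to 0.26, Rrh from -0.16 to 0.051, Rlbp1 from 0.018 to 0.27, and Rdh10 from -0.0046 to 0.13 and from -0.0041 to 0.047. The replicate number pairs no animals, and same-numbered retinas of the ages had deviations correlated at -0.14, 0.06 and -0.28 across probe sets. With it as a replicate block, 0 members passed, the lowest limma adjusted p being 0.693. Over all kept probe sets the 3126 with an unadjusted limma p under 0.05 became 1567 without both lens-rich retinas. They became 2061 without 8-month retina 1, 1932 without 8-month retina 2 and 2615 without 8-month retina 3. Without 3-month retinas 1, 2 and 3 in turn they became 2560, 4109 and 2325, so leaving out 3-month retina 2 raised the count. Over the alternatives the 1 adjusted call became 0 to 2. For Rgr in 3-month retina 1, and for Rpe65, Best1, Lrat and Rdh5, the signal near the floor limits what can be read.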
